A study of Mus musculus with 6 samples.

Results

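Oligodendrocyte precursor cells (OPCs) of the NG2 line are the cells that the authors' clustering of the 3 NG2 libraries placed in cluster 6, which the study names OPCs. They number 695 of the 10455 cells of the line and of the 17033 cells of the series. The mice carried NG2-Cre-ERT2 and the Cre reporter Ai14-flx, so that tamoxifen switches on tdTomato in cells that use the NG2 gene, Cspg4. They were 3 to 4 months old, and all groups received tamoxifen. The cerebral cortex was taken from naïve mice, or 3 days after an intracerebral injection that came 7 days after tamoxifen. The injection was saline (physical injury) or ET-1/L-NAME, a pair of vasoconstricting agents (ischemic injury). Live tdT+ cells without DAPI were sorted from pooled animals of both sexes, and each condition is 1 droplet library. No test between conditions was therefore possible, and every interval below covers counting error only.

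OPCs are the dividing glial cells of the adult cortex that give rise to oligodendrocytes. They carry the PDGF receptor alpha, which holds them in a proliferative state, and they receive synaptic input through glutamate and GABA receptors. On leaving this state they pass through a committed precursor stage, in which Pdgfra and Cspg4 are switched off and Gpr17, Bcas1, Enpp6 and Bmp4 are transiently high, before myelin genes are taken up. NG2 is made by OPCs and by pericytes, the mural cells of capillaries, so that the reporter marks both.

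The label was checked against 11 OPC genes. Of these, 10 had their highest level of all clusters of the line in cluster 6. Pdgfra, the PDGF receptor alpha, was at 776 counts per 1000000 counts of the summed cells (CPM), against 2.37 CPM in cluster 1, the pericytes, and 2.06 CPM in cluster 4, the oligodendrocytes. Ptprz1, a receptor phosphatase of the cell surface, was at 3484 CPM against 8.38 and 9.90 CPM. Cacng4 and C1ql1, an AMPA receptor auxiliary subunit and a secreted C1q-like protein, were at 728 and 444 CPM. Of 11 committed precursor genes 7 were highest in cluster 6, among them Neu4 and Gpr17, at 243 and 574 CPM. Bmp4, Sirt2, Tcf7l2 and Rras2 were not. Bmp4 was at 69.5 CPM against 72.2 CPM in cluster 1, and Sirt2 at 729 CPM against 1218 CPM in cluster 4. The exception among the OPC genes was Cspg4 itself. Its 328 CPM stood below the 744 CPM of cluster 1 and the 910 CPM of cluster 10. After each cell was thinned to 2000 transcript molecules (UMIs), a UMI of Pdgfra was found in 61.0%, 76.4% and 65.6% of the OPCs of the naïve, physical injury and ischemic injury libraries. In cluster 1, which should lack it, the shares were 0.109%, 0.352% and 1.38%. The genes that set cluster 6 furthest from the next cluster were Thsd7b, Gpr158, Rtl4, Gpc5 and Lrrtm4, followed by Nrg1, Nrg3, Shisa9, Dpp10, Lrfn5, Sez6l, Neu4, Dpyd, Tenm1 and Tmem132d. Gpc5, a glypican, was at 2209 CPM against 156 CPM in cluster 7, and Lrrtm4, a synaptic organizer, at 1753 CPM against 132 CPM. Cluster 7 was the next highest for 14 of these 15 genes. As the clustering used these genes, their levels are a description.

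Of 4306 naïve cells, 100 were in the OPC cluster, a share of 2.32% (95% exact interval 1.89% to 2.82%). Physical injury gave 301 of 2563 cells, 11.7% (10.5% to 13.1%). Ischemic injury gave 294 of 3586, which is 8.20% (7.32% to 9.14%). The share was higher by 9.42 percentage points (8.10 to 10.8) after physical injury than in the naïve library, and by 5.88 points (4.87 to 6.92) after ischemic injury. These are shares of sorted cells that include pericytes, so that more OPCs and fewer recovered pericytes cannot be told apart. Among the cells of clusters 4, 6 and 7 alone, OPCs made up 45.5% (38.7% to 52.3%), 44.9% (41.1% to 48.7%) and 22.2% (19.99% to 24.5%). On this denominator the naïve and physical injury libraries differed by -0.596 points (-8.42 to 7.14), and the ischemic library lay 22.7 points below that of physical injury (18.2 to 27.1). Cluster 7, a cluster with high Fabp7, Dbi and Top2a that the study calls radial glial cells, held 17, 76 and 438 cells.

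**Figure D1:**
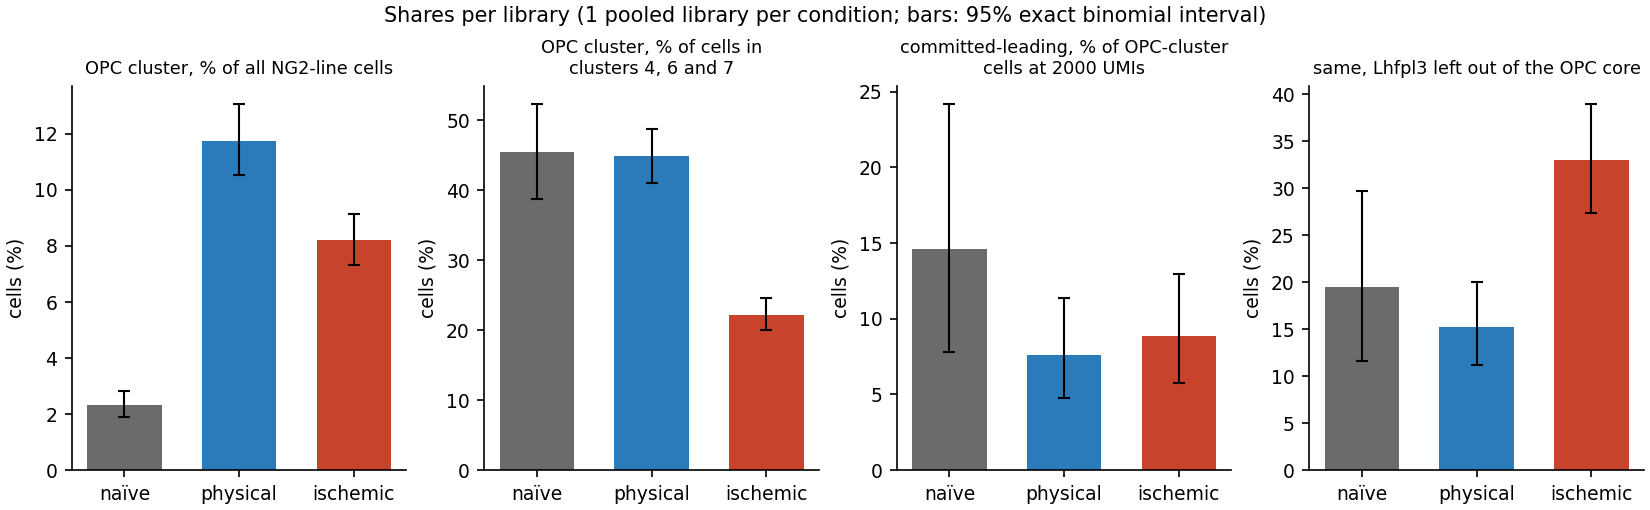
Percent of cells (y axes, from 0) in the naïve, physical injury and ischemic injury libraries of the NG2 line, 1 library each, with 95% exact binomial intervals. From left to right are the OPC cluster among all cells (2.32%, 11.7% and 8.20%), the same among clusters 4, 6 and 7, the OPC-cluster cells in which committed precursor genes lead, and the same share with Lhfpl3 left out.

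Cells that carry at least 3 of the 11 OPC genes at 1000 UMIs gave another count. These made up 2.31% of the naïve library (98 of 4236 cells), 12.5% of the physical injury library (312 of 2493) and 15.6% of the ischemic library (538 of 3449). In the ischemic library 276 of them were in cluster 6 and 250 in cluster 7, so that OPC genes were not particular to cluster 6 there. In the Tbx18 line, whose sort rests on another pericyte gene, such cells were 0 of 629, 2 of 3696 and 3 of 2014. The count of 0 allows a share of up to 0.585% by the exact interval.

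Depth differed between the libraries and bears on all that follows. The OPCs had a median depth of 4691.5 UMIs (naïve), 12390 UMIs (physical injury) and 11764.5 UMIs (ischemic injury), and their summed counts were 568866, 3784991 and 3949771. The naïve library is thus the least precise, and 1 UMI there is worth more than 1 CPM. A naïve count of 0 allows a level of up to 6.48 CPM by the exact interval. The naïve OPCs also had the highest median share of mitochondrial transcripts, 3.17% against 1.56% after physical and 1.70% after ischemic injury, and its part in the differences from the naïve library was not tested. The cell barcodes of the OPCs were not shared between libraries, and 98 of the 100 naïve OPCs fall together in 1 cluster of the authors' separate clustering of both naïve libraries.

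The cells in which committed precursor genes lead were counted at 2000 UMIs per cell, which leaves 82, 276 and 270 cells. The summed UMIs of Gpr17, Neu4, Bmp4, Bcas1 and Enpp6 were set against those of Pdgfra, C1ql1, Cacng4, Cspg4, Matn4 and Lhfpl3. Gpr17 is a receptor that holds back maturation, Bcas1 and Enpp6 mark newly forming oligodendrocytes, Neu4 is a sialidase, and Bmp4 a secreted growth factor. The committed genes led in 57 of 628 cells, 9.08% (6.95% to 11.6%). In the naïve library they were 12 cells, or 14.6% (7.80% to 24.2%). Physical injury gave 21 such cells, or 7.61% (4.77% to 11.4%), and ischemic injury 24, or 8.89% (5.78% to 12.9%). The share after physical injury was 4.31% under the study's cell filters, and that after ischemic injury ran from 4.44% with more than 2 times the OPC UMIs required to 20.4% with more than 0.5 times. Physical injury minus naïve was -7.03 points (-17.0 to 0.791) and ischemic injury minus naïve -5.75 points (-15.8 to 2.20), neither of which could be told from 0 at this depth. After ischemic injury the share was 1.28 points above that after physical injury (-3.62 to 6.22). Another 1, 0 and 10 cells were ties, among them 1, 0 and 2 cells with neither set. The cells within 1 UMI of the line numbered 3 of 82, 1 of 276 and 17 of 270, so that the division was sharpest after physical injury.

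**Figure D2:**
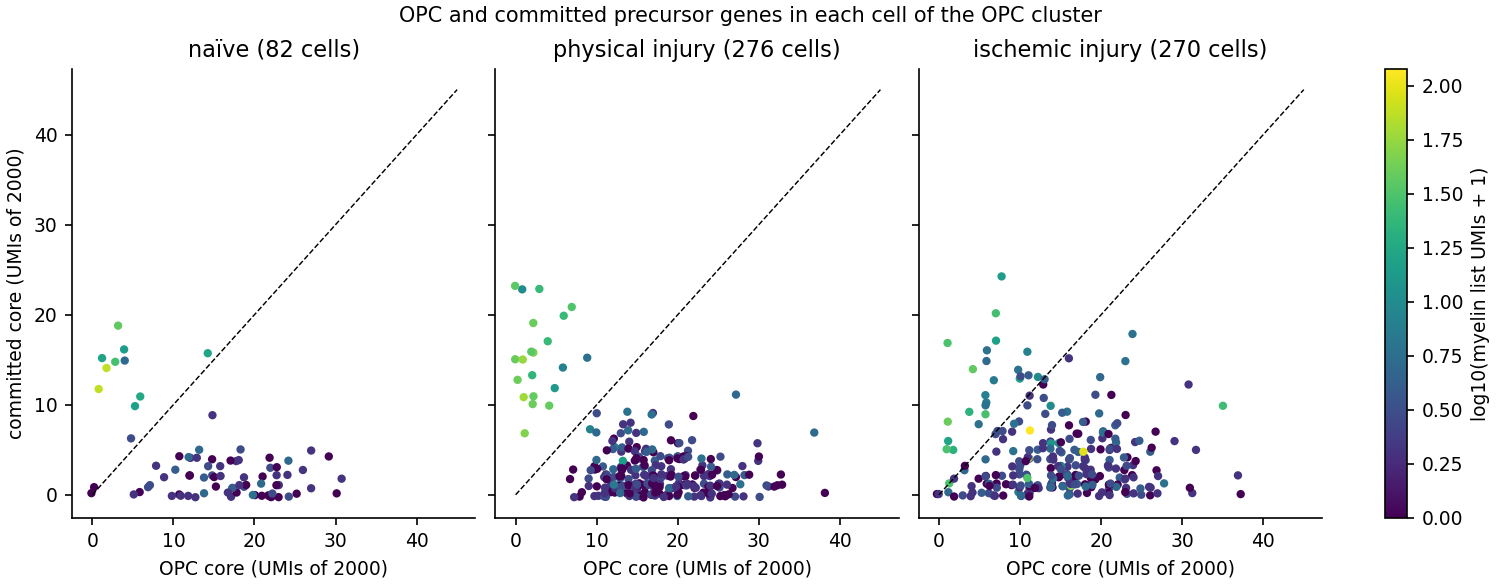
Each point is a cell of the OPC cluster thinned to 2000 UMIs, with the UMIs of 6 OPC genes on the x axis and of 5 committed precursor genes on the y axis (points shifted at random by less than 1 UMI so that they do not overlap). Colour is the log10 of the UMIs of 14 myelin genes plus 1; the 12, 21 and 24 cells above the dashed line have more committed than OPC UMIs, and most of them have more myelin UMIs than the cells below it.

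The line rests on Lhfpl3. This tetraspan gene supplied most of the OPC UMIs, at 4955, 5110 and 4988 CPM, and it was still found in 84.2% of the committed-leading cells. When it was left out, a choice made with the values in view, the committed genes led in 16, 42 and 89 cells, 19.5% (11.6% to 29.7%), 15.2% (11.2% to 20.01%) and 33.0% (27.4% to 38.9%). The ischemic library then lay 17.7 points above that of physical injury (10.4 to 24.9) and 13.5 points above the naïve library (1.80 to 23.4), so that the direction of the latter difference turned. Of all thinned cells, 13, 39 and 65 then lay within 1 UMI of the line, on either side. By the pair of genes most used for the 2 stages, a UMI of Pdgfra without Gpr17 was found in 37.1% of the OPCs, both in 32.6%, Gpr17 without Pdgfra in 14.5% and neither in 15.8%. Gpr17 without Pdgfra was found in 13.4%, 11.96% and 17.4% of the cells of the 3 libraries. Absence of a UMI at this depth is no absence of the transcript.

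The committed-leading cells were told apart by genes that did not enter the count. A UMI of Fyn, a kinase of oligodendrocyte maturation, was found in 94.7% of them and in 45.9% of the 560 cells in which OPC genes lead. For the deacetylase Sirt2 the shares were 94.7% and 43.9%, and for the myelin enzyme gene Cnp 86.0% and 21.1%. Cspg5, a proteoglycan, was found in 28.1% and 86.2%, and Ptprz1 in 77.2% and 98.6%. Of the other genes of both lists, Lims2 was found in 61.4% and 22.1%, Nkx2-2 in 42.1% and 11.25%, and Tcf7l2 in 52.6% and 21.96%. Emid1 was found in 10.5% and 39.1%. Vcan, Sox6 and Rras2 differed less, with Vcan in 70.2% and 83.4%, Sox6 in 87.7% and 88.8% and Rras2 in 0% and 3.75%. Of the 14 myelin genes, 10 were found in a larger share of the committed-leading cells and 4 in a smaller one. Mbp was found in 61.4% and 8.57%, Mag in 40.4% and 2.32%, Cldn11 in 38.6% and 4.11%, Mog in 8.77% and 2.14%, and Mobp in 0% and 2.68%. The median of the summed myelin UMIs was 20 in them, 1 in the OPC-leading cells and 167 in the oligodendrocytes of cluster 4. None of the 57 cells, against 21 of the 560, had at least 2 UMIs of mitosis genes. The same count gave 637 of 952 cells in cluster 4, 66.9% (63.8% to 69.9%), where the medians of the OPC and committed sets were 0 and 1 UMIs. It gave 18 of 451 cells in cluster 7 and 56 of 1420 cells in cluster 1, where the medians of both sets were 4 and 0 UMIs and 1 and 0 UMIs.

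Frmd4a, a scaffold protein gene of 596 kb (chr2:4017717-4614043, mm10, plus strand), is one of the genes with the largest ratios between libraries, and most of its counts lay in these cells. It was at 2614 CPM in the committed-leading and 64.9 CPM in the OPC-leading cells. In the summed OPCs its levels were 1113 CPM (naïve), 500 CPM (physical) and 176 CPM (ischemic). Of its counts 591 of 633, 1729 of 1893 and 411 of 694 lay in committed-leading cells (no thinning). Without those cells the ischemic library was above that of physical injury, with a log2 ratio of 0.68 in place of -1.50. Enpp6, a choline phosphodiesterase gene that the division itself used, was at 244, 180 and 84.3 CPM, and 139 of 139, 676 of 681 and 307 of 333 counts lay in these cells.

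Genes of OPC identity were compared first. Summed counts were compared over 6269 genes with a mean of at least 30 CPM, as log2 ratios with 1 CPM added, and a gene was counted when it differed by at least 2-fold. Of all genes, 1.1% were higher and 1.15% lower after physical injury than in the naïve library. After ischemic injury 3.14% were higher and 1.87% lower than in the naïve library, and against physical injury 0.845% were higher and 0.415% lower. The medians over all genes were 0.02, 0.04 and 0.04 on the log2 scale. The first 2 comparisons share the naïve library. When the study's cell filters were applied again, which left 72, 257 and 288 OPCs, 710, 1026 and 145 genes were past 2-fold in place of 141, 314 and 79, and 74.4% rather than 48.9% of the first were higher. None of the 11 OPC genes differed by 2-fold in any of the 3, a count near that share, and their medians were 0.13, -0.30 and -0.37. Pdgfra was at 756, 869 and 690 CPM in the naïve, physical injury and ischemic injury libraries, the order used from here on. Ptprz1 was at 3878, 3794 and 3131 CPM, and Cspg5 at 1747, 1919 and 1188 CPM. Cspg4 was at 476, 366 and 270 CPM. In the ischemic library, 10 of the 11 OPC genes were below their level after physical injury, the exception being Sox6, a transcription factor of the precursor state.

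The transcription factors of the lineage were measured for 14 of 17 genes. Olig1 was at 791, 1169 and 942 CPM, Olig2 at 385, 550 and 437 CPM, and Sox10 at 271, 322 and 327 CPM. These 3 factors specify and maintain the lineage, and none was past 2-fold. In each comparison 1 gene was past it. Over all genes 1.1% were higher after physical injury, 3.14% higher after ischemic injury and 0.415% lower between the injuries. Hes1, an effector of Notch signalling, was at 19.3, 50.5 and 25.6 CPM and passed after physical injury (above the minimum only through that library). Sox8, a partner of Sox10, was at 80.9, 162 and 167 CPM, past 2-fold only in the ischemic against the naïve library, with a log2 ratio of 1.03. This ratio was 0.92 without the 6, 1 and 2 cells that hold 1% or more UMIs of pericyte, smooth muscle, endothelial and microglia genes. Without committed-leading cells it was 1.57 after both injuries. Hes5, another Notch effector, was at 128, 133 and 65.3 CPM and passed between the injuries. Without the cells that hold other types' transcripts Hes5 was past 2-fold against the naïve library too, with a log2 ratio of -1.08 in place of -0.96. Of 10 measured committed precursor genes only Enpp6 was past 2-fold, lower after ischemic injury than in the naïve library (1.87% of all genes) and than after physical injury (0.415%). Without committed-leading cells 8 genes were measured, with medians of 0.31 after physical and 0.51 after ischemic injury against the naïve library. Of these, 1 and 2 were 2-fold higher and none lower. Over all 6252 genes of this setting, 88 and 288 were higher and 84 and 135 lower. As 5 genes of the list chose the cells left out, these counts are not read as a result. Gpr17 was at 492, 524 and 634 CPM, and Bcas1 at 800, 1062 and 1232 CPM. Of 9 measured myelin genes, Mal and Trf were higher and Mbp and Mag lower after ischemic injury than in the naïve library, each by at least 2-fold, against 3.14% and 1.87% of all genes. As Mal and Trf reached the minimum only through the ischemic library, their number is not read as a result. Mal, a raft protein of mature myelin, was at 21.1, 14.5 and 77.2 CPM, with 73.8% of its ischemic counts in 10 cells. Mbp, the myelin basic protein, was at 578, 326 and 181 CPM. Mbp was at 1672 CPM in committed-leading and 73.8 CPM in OPC-leading cells, and Mag at 378 and 27.2 CPM. The part of the committed-leading cells in the lower summed levels of Mbp and Mag was not tested.

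Of 17 measured genes of receptors and ion channels none was past 2-fold, again near the share over all genes. Their medians were 0.03, -0.26 and -0.25. Gria2, an AMPA receptor subunit, was at 960, 971 and 832 CPM, and Grin3a, an NMDA receptor subunit, at 480, 471 and 274 CPM. In the ischemic library 16 of the 17 were below their level after physical injury, at a median of 0.04 over all genes. The matrix proteoglycan genes had medians of 0.13, -0.29 and -0.15, and the growth factor receptor genes of 0.06, -0.06 and -0.04, none of either past 2-fold. Gene length moved with these small shifts. Ischemic against physical injury, the median log2 ratio was -0.22 over 421 genes longer than 300 kb and 0.10 over 1981 genes of up to 20 kb. In the pericytes of cluster 1 these medians were -0.46 and 0.14, and in cluster 4 -0.07 and 0.11. Its part in the result was not tested. The study gives a range of Cell Ranger versions, and whether libraries differed in version or in the counting of introns is not given in the sources used here, which limits the reading of long genes such as Frmd4a and Glis3.

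**Figure D3:**
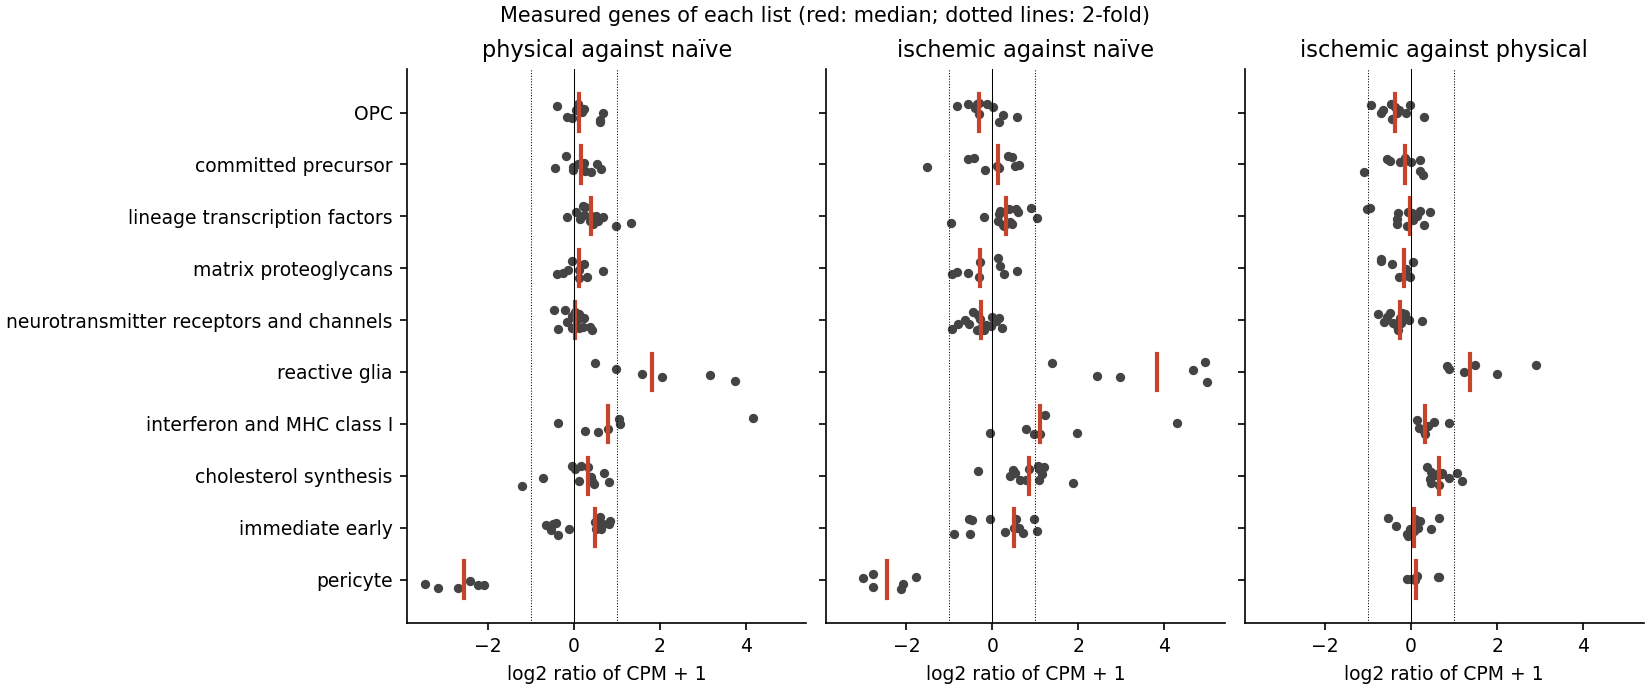
Log2 ratio of CPM + 1 (x axes) of each measured gene of 10 lists in the summed OPC cluster, for the 3 comparisons between libraries. Points are genes, red lines the median of a list and dotted lines 2-fold; the OPC genes sit within 2-fold in all 3 panels, the 6 reactive glia genes to the right of 0, and the 6 pericyte genes to the left in both comparisons with the naïve library, where the reactive and pericyte genes reached the minimum of 30 CPM mostly through the libraries in which they are high.

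Several genes of reactive glia were higher after injury. The list has 17 genes, and 6 of them had a mean of at least 30 CPM, 4 of these only through the injured libraries, so that their number past 2-fold is partly set by this minimum and is not read as a result. Over all 17 genes, 11 were above and 4 below their naïve level after physical injury, 16 above and 1 below after ischemic injury, and 17 were higher after ischemic than after physical injury, many of them at a few CPM. The gene below its naïve level after both injuries was Spp1, osteopontin, at 42.2, 0 and 2.03 CPM. The genes above the minimum in the naïve library too were S100a6, a calcium-binding protein, at 186, 560 and 1007 CPM, and Tmsb10, a thymosin that binds actin, at 84.4, 120 and 221 CPM. Serpina3n, a secreted protease inhibitor typical of reactive astrocytes, was at 14.1 CPM (6.07 to 27.7), 135 CPM (123 to 147) and 382 CPM (363 to 402). It was 27.1-fold higher (13.7 to 63.0) after ischemic injury than in the naïve library. A UMI was found in 1.22%, 8.33% and 23.3% of the OPCs at 2000 UMIs, and in 0%, 0.352% and 1.84% of the cells of cluster 1. C4b, a complement component, was at 1.76, 36.2 and 86.6 CPM, the naïve value from 1 UMI. Lgals1, galectin-1, was at 3.52, 17.7 and 138 CPM, and Vim, the intermediate filament vimentin, at 26.4, 52.8 and 214 CPM. For S100a6 and Tmsb10, which did not depend on the minimum, naïve was lowest and ischemic highest. Lgals1 was also abundant in pericytes, with a UMI in 30.4% to 55.8% of the cells of cluster 1, while C4b was found in none of them. Gfap, the astrocyte intermediate filament, was at 0, 1.06 and 10.6 CPM, and the 7 astrocyte genes summed to 555, 459 and 392 CPM. Reads of C4b and Serpina3n could be split with near-identical neighbours of their families.

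The reactive genes were spread unevenly over cells. At least 2 of the 17 genes were found in 4 of 82 naïve OPCs, 4.88% (1.34% to 12.02%), in 53 of 276 after physical injury, 19.2% (14.7% to 24.4%), and in 121 of 270 after ischemic injury, 44.8% (38.8% to 50.96%). None of them was found in 49, 143 and 75 cells. Before thinning, 10 cells held 43.7% of the 1508 Serpina3n counts of the ischemic library and 84.7% of the 510 after physical injury, 225 of them in 1 cell. For S100a6 the 10 highest cells held 31.7% and 43.0%. Without the cells that hold 1% or more UMIs of other cell types the list summed to 400.3, 943 and 2239 CPM, in place of 394, 947 and 2233 CPM, and without the committed-leading cells to 355, 820.3 and 2108 CPM. In the oligodendrocytes of cluster 4, Serpina3n was at 0, 90.2 and 373 CPM and C4b at 5.35, 50.0 and 137 CPM. In cluster 7 these 2 genes were lower after ischemic than after physical injury, with Serpina3n at 0, 358 and 233 CPM and C4b at 0, 68.0 and 19.7 CPM. The summed list went the other way there, at 1543, 6093 and 8932 CPM, with a median log2 ratio of 0.97 between the injuries over 11 measured genes. The naïve values of cluster 7 rest on 17 cells, in which 1 count is worth 33.5 CPM and the pericyte list summed to 12744 CPM, against 35.05 and 48.4 CPM after injury. In cluster 1 Serpina3n was at 0, 2.48 and 11.7 CPM.

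**Figure D4:**
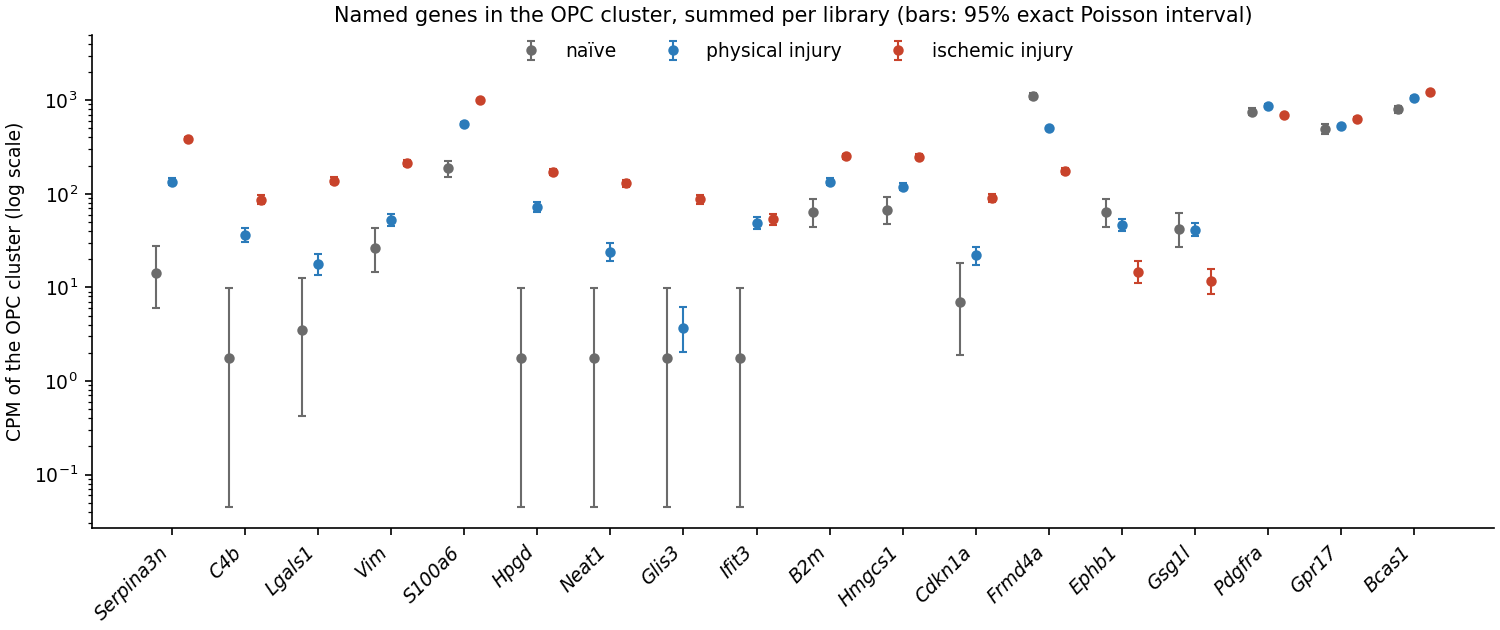
CPM (y axis, log scale) of 18 named genes in the summed OPC cluster of the naïve, physical injury and ischemic injury libraries, with 95% exact Poisson intervals. Serpina3n, C4b, Lgals1, Vim and S100a6 stand in the order naïve, physical, ischemic, Frmd4a in the reverse order, and Pdgfra, Gpr17 and Bcas1 lie close together; naïve values from 1 count have wide intervals.

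Other genes with the largest ratios after injury have varied roles. Hpgd, which degrades prostaglandins (chr8:56294585-56321043, mm10, plus strand), was at 1.76 CPM (1 UMI), 72.4 CPM and 172 CPM. It was 97.6-fold higher (17.5 to 3863) in the ischemic than in the naïve library and 2.37-fold higher (2.06 to 2.74) than after physical injury. No cell of cluster 1 had a UMI of it at this thinned depth, but it was at 376, 212 and 127 CPM in the microglia of cluster 9 and at 0, 69.1 and 16.8 CPM in cluster 7. However, 10 cells held 75.2% of its 678 ischemic counts, and 1 cell held 288. Glis3, a Krüppel-like zinc finger factor, was at 1.76, 3.70 and 87.3 CPM, a 23.6-fold difference (13.9 to 43.7) between the injuries, and 79.4% of its ischemic counts lay in 10 cells. Neat1, a nuclear noncoding RNA, was at 1.76, 24.0 and 130 CPM. Cdkn1a, the p21 inhibitor of the cell cycle, was at 7.03 CPM (4 UMIs), 21.9 CPM and 90.1 CPM, with 54.2% of its ischemic counts in 10 cells. It reached the minimum only through the ischemic library. It is from the list of stress and p53 genes, of which 5 were measured. Their medians were 0.12, 0.27 and 0.33 in the 3 comparisons. Ndst3, a heparan sulfate enzyme, was at 5.27, 16.9 and 72.9 CPM. Pnlip and Dbpht2 were more evenly spread, and were higher after both injuries. Pnlip, a lipase gene, was at 15.8, 72.9 and 35.2 CPM, with 20.7% of its counts after physical injury in 10 cells. Dbpht2 was at 19.3, 81.9 and 78.2 CPM.

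Against physical injury, the ischemic library was also higher in Mt2, a metallothionein, at 49.2, 41.2 and 187 CPM, in Msn, the membrane linker moesin, at 24.6, 11.6 and 56.5 CPM, and in Mgp, an inhibitor of calcification, at 66.8, 18.8 and 84.8 CPM. One cell held 178 of the 335 ischemic Mgp counts. The genes lowest after ischemic injury relative to physical injury, besides Frmd4a, were Gsg1l, Ephb1, Trpc5, Mgat4c, Inka2, Mylip and Adcy8. Gsg1l, Ephb1, Trpc5, Mgat4c and Adcy8 span 204, 433, 307, 710 and 225 kb, and Inka2 and Mylip 16.2 and 22.3 kb. The part of gene length in these ratios was not tested. Gsg1l, an AMPA receptor auxiliary subunit, was at 42.2, 41.2 and 11.6 CPM, 3.54-fold lower (2.53 to 5.03). Ephb1, a receptor of ephrins, was at 63.3, 46.8 and 14.7 CPM, 3.18-fold lower (2.35 to 4.36), and 91 of its 177 counts after physical injury lay in committed-leading cells. Trpc5, a cation channel, was at 47.5, 31.2 and 11.9 CPM, and Adcy8, an adenylyl cyclase, at 96.7, 58.4 and 26.1 CPM.

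Interferon-response and antigen-presentation genes were measured for 7 of 16 members. Of these, 3 were past 2-fold after physical injury (1.1% of all genes) and 4 after ischemic injury (3.14%), all higher, and none between the injuries. As Ifit3 passed the minimum only through the injured libraries, the counts are not read as a result. Without the cells that hold other types' transcripts 2 were past 2-fold after physical injury, and without committed-leading cells 2 after physical injury, 3 after ischemic injury and 1 between the injuries. Over all 16 genes, 14 were above their naïve level after physical injury and 15 after ischemic injury. Ifit3, an antiviral effector that could share reads with a near-identical copy, was at 1.76, 48.6 and 53.4 CPM, the naïve value from 1 UMI. B2m, the light chain of MHC class I, was at 63.3, 134 and 250 CPM, and Ifi27 at 125, 259 and 294 CPM. After physical injury 1 cell held 114 of the 508 B2m counts, and the 10 highest cells held 48.2%. For Ifit3 and Ifi27 the 10 highest cells of that library held 73.9% and 20% of the counts. H2-K1, an MHC class I heavy chain, was at 42.2, 74.2 and 92.7 CPM. The upstream factor Irf1 was at 35.2, 27.2 and 33.7 CPM. A UMI of B2m was found in 7.32%, 16.7% and 28.1% of the OPCs and in 36.5%, 33.1% and 46.1% of the cells of cluster 1, which express it, so that the part of free RNA in the OPC shares was not tested.

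Genes of cholesterol synthesis, a pathway that precursors need to build membrane, were measured for 13 of 15 members. After ischemic injury 6 of them were at least 2-fold higher than in the naïve library and none lower, against 3.14% and 1.87% of all genes, with a median of 0.86, and 12 of the 13 were above 0. Against physical injury 2 were 2-fold higher, against 0.845% of all genes, and all 13 were above 0, with a median of 0.66. After physical injury none was 2-fold higher than in the naïve library and 1 was lower, against 1.1% and 1.15% of all genes. The median was 0.33. Hmgcs1, which makes the HMG-CoA of this pathway, was at 66.8 CPM (47.3 to 91.7), 119 CPM (109 to 131) and 250 CPM (234 to 266), and was found in 10.98%, 18.5% and 34.8% of the OPCs, against 8.38%, 7.39% and 10.1% of the cells of cluster 1. Its counts were spread over 196 of the 294 ischemic cells, with 21.0% of the 986 ischemic counts in the 10 highest cells. Sqle, squalene epoxidase, was at 36.9, 46.8 and 77.7 CPM, Idi1 at 44.0, 61.6 and 102 CPM, Fdps at 43.9, 72.1 and 99.5 CPM, Fdft1 at 31.6, 41.7 and 67.9 CPM and Cyp51 at 66.8, 90.1 and 143 CPM. The summed list was at 768, 909 and 1463 CPM. It was at 1634, 2404 and 2535 CPM in cluster 4 and at 699, 715 and 728 CPM in cluster 1. In cluster 7 it was at 905, 1229 and 939 CPM, the naïve value from 17 cells, and thus lower after ischemic than after physical injury. Without the cells that hold 1% or more UMIs of other types, 4 rather than 6 genes were past 2-fold in the ischemic against the naïve library.

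As several members of both lists were higher together, their promoters were searched in RefSeq windows of GRCm38.p6, which run from 250 bases before to 50 bases after each annotated start. The motifs, textbook elements chosen after the values were seen, were TCACNCCAC, a sterol regulatory element, and the interferon-stimulated response element, GAAA followed by any 2 bases and another GAAA, on both strands. The first was in the windows of 1.44% of all 27025 genes (1.24% of the 32851 windows) and, of 9 cholesterol genes matched, in that of Hmgcs1, on its own strand and 137 bases before the start. The second was in those of 3.99% of all genes (3.44% of the windows) and in 6 of 14 matched genes of the interferon list. Among those past 2-fold it was in B2m, 139 bases before the start, and in Ifit3, on the opposite strand, where a match lay 122 bases before the start. The windows of these 3 genes are shown 5′ to 3′ on the strand of the gene, with the match in capitals. They lie at chr13:119690188-119690248 (plus strand), chr2:122147522-122147583 (plus strand) and chr19:34583381-34583442 (plus strand). A match is a description of letters and not a site.
Hmgcs1: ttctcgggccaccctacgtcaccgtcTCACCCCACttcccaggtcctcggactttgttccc
B2m: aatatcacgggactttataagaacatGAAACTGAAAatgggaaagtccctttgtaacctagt
Ifit3: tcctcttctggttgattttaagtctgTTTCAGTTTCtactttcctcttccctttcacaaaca

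Ribosomal protein genes, a group added after the values were seen, differed in the OPCs by library. Of 74 measured genes, 43 were at least 2-fold higher after ischemic injury than in the naïve library and none lower. Over all genes these shares were 3.14% and 1.87%. The median of the ribosomal genes was 1.06. They summed to 23296, 29547 and 47569 CPM in the OPCs. In cluster 4 they summed to 36196, 26874 and 30212 CPM and in cluster 1 to 47067, 43814 and 60353 CPM. In cluster 7 they summed to 67342, 124879 and 150666 CPM, the first from the 17 naïve cells with many pericyte transcripts. The genes thus make up 43 of the 197 genes that were 2-fold higher in this comparison.

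Dividing cells were few in the cluster. At 2000 UMIs, at least 2 UMIs of 15 mitosis genes were found in 4 of 82 naïve OPCs, 4.88% (1.34% to 12.02%), in 4 of 276 after physical injury, 1.45% (0.396% to 3.67%), and in 14 of 270 after ischemic injury, 5.19% (2.86% to 8.55%). The share was higher by 3.74 points (0.524 to 7.26) after ischemic than after physical injury. In cluster 7 it was 1 of 4, 14 of 47 and 249 of 400 cells, 62.2% (57.3% to 67.0%) in the last, and in cluster 1 it was 0.218%, 0.352% and 2.30%. Without thinning, the shares in the OPCs were 4.00%, 7.31% and 20.4%. Mki67, the proliferation marker Ki-67, was at 54.5, 6.61 and 52.9 CPM, and the direction between physical injury and naïve turned (log2 ratio 1.74) when the cells with 2 mitosis UMIs were left out. Of the 69 naïve mitosis counts 50 lay in cells that hold 1% or more UMIs of other cell types, and 2 of the 4 naïve cells were among these. Immediate early genes, which dissociation can induce, summed to 7736, 7865 and 7711 CPM in the OPCs and to 9724, 3795 and 5614 CPM in cluster 1. None of 13 measured was past 2-fold in the OPCs after physical injury, where 1.1% of all genes were higher. After ischemic injury, where 3.14% of all genes were higher, only Egr1 was past it, at 299, 537 and 617 CPM. Its log2 ratio of 1.04 was 0.99 without the cells that hold other types' transcripts and 0.90 without committed-leading cells.

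The named genes with the lowest ratios to the naïve library, other than Mki67 and Frmd4a, were genes that the pericytes of cluster 1 express. All 8 genes of the pericyte list were detected in the OPCs and all 8 were below their naïve level in both injured libraries. Of the 6 with a mean of at least 30 CPM, 4 reached it only through the naïve library, so that the number past 2-fold is not read as a result. Vtn, vitronectin, was at 1039, 116 and 127 CPM, 8.98-fold lower (7.92 to 10.2) after physical injury. The list summed to 1807 CPM (1698 to 1921), 241 CPM (226 to 257) and 300 CPM (283 to 317). Higd1b, Abcc9, Rgs5, Ndufa4l2, Rgs4, Slc6a20a, Mfge8 and Igfbp7 complete the named genes on this side. All of them were found in most cells of cluster 1, from 81.1% of cells for Slc6a20a upwards. At 2000 UMIs a UMI of the list was found in 31.7% of the naïve OPCs, 8.33% after physical and 8.15% after ischemic injury, but most of the naïve counts lay in few cells. In the naïve library 6 of 100 cells held 1% or more UMIs of pericyte, smooth muscle, endothelial and microglia genes, against 1 of 301 and 2 of 294 cells after injury, and 487 of the 591 Vtn counts lay in those 6 cells. Without such cells the list summed to 339 CPM (291 to 393), 222 CPM (208 to 238) and 241 CPM (226 to 257), and 2 of its genes still had a mean of at least 30 CPM. Mfge8, which is not on the list, was spread more widely. Only 35 of its 142 naïve counts lay in those 6 cells, and 41 of the 100 naïve cells held it, so that such cells hold a small part of its naïve level. Cluster 1 made up 1086 of the 4306 naïve cells, 318 of 2563 and 309 of 3586. In cluster 4 the list summed to 328, 165 and 164 CPM.

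**Figure D5:**
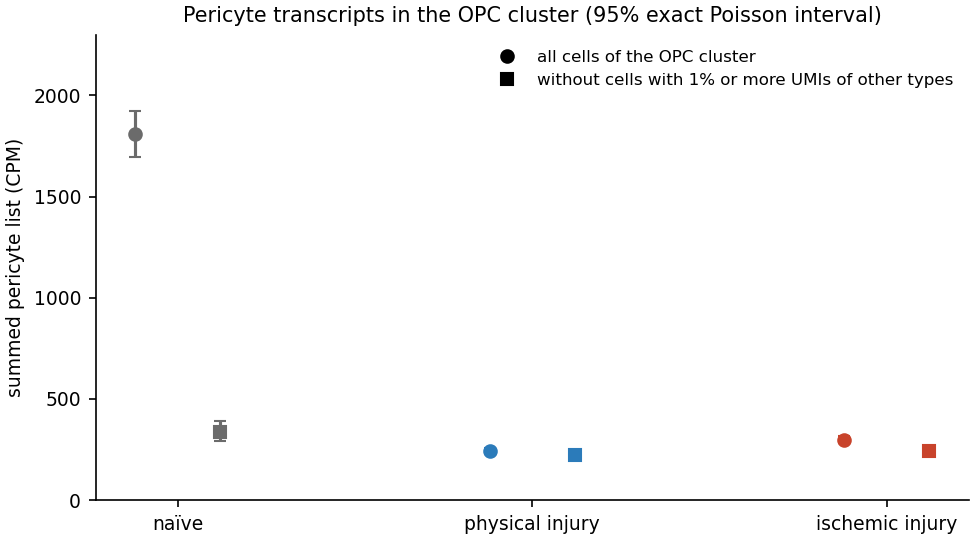
Summed CPM of 8 pericyte genes (y axis, from 0) in the OPC cluster of the 3 libraries, for all cells (circles) and without the 6, 1 and 2 cells that hold 1% or more UMIs of other cell types (squares), with 95% exact Poisson intervals. The naïve value goes from 1807 to 339 CPM, and the other 2 libraries stay between 222 and 300 CPM.

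Other cell types were scarce in the OPCs. The 6 endothelial genes summed to 7.03, 5.81 and 62.8 CPM, with 4, 1 and 0 of them at 0, and 83 of the 89 ischemic counts of Cldn5, the most abundant, lay in 1 cell. Of the 9 microglia genes 6, 3 and 1 were at 0, and Tmem119 was at 0 in all 3 libraries. The 5 smooth muscle genes summed to 125, 103 and 60.5 CPM, led by Myl9 in the naïve and Acta2 in the injured libraries. The 6 neuron genes summed to 232, 239 and 221 CPM, led by Snap25, with Gad2 at 0 in all 3. Fibroblast genes summed to 12.3, 0.528 and 1.01 CPM and haemoglobin genes to 0, 2.64 and 2.53 CPM. Genes of the sex chromosomes moved with the libraries as well. Xist was at 1051, 739 and 397 CPM in the OPCs and at 499, 299 and 270 CPM in cluster 4, and the Y-linked gene Uty was at 21.1, 37.0 and 56.5 CPM and at 14.5, 16.6 and 37.0 CPM. In cluster 1 Xist was at 453, 669 and 366 CPM, highest after physical injury, and Uty at 16.4, 18.2 and 25.6 CPM. The part that the mix of sexes in the pools has in the other differences was not tested.

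The study asks whether injured cells take up neural genes, and 4 of 8 genes of the neuroblast list, which marks young neurons, were measured. Sox11 was at 42.2, 88.8 and 119 CPM and Tubb3 at 19.3, 42.5 and 44.3 CPM, both past 2-fold after either injury, against 1.1% and 3.14% of all genes. As Tubb3 reached the minimum of 30 CPM only through the injured libraries, this count is not read as a result. Dcx, doublecortin, was at 52.7, 59.7 and 57.2 CPM, and Sox4 at 234, 353 and 290 CPM. Of the more specific genes, Dlx2 was at 0 in all 3 libraries and Stmn2 at 0, 0.264 and 2.79 CPM. Of 7 measured genes of hypoxia and glycolysis, only Ddit4 was past 2-fold against the naïve library, at 17.6, 36.2 and 38.2 CPM. Over all genes 1.1% and 3.14% were higher. As Ddit4 too reached the minimum only through the injured libraries, this count is not read as a result. Vegfa, the vascular growth factor, was at 125, 211 and 101 CPM, 2.10-fold lower (1.86 to 2.38) after ischemic than after physical injury.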

How the data were processed

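The deposited UMI counts per gene and cell of the NG2 line were used, which the authors made with Cell Ranger (7.0.0 in the submitters' processing notes, a range of versions in the study's methods, with no version given per library) and mm10, together with their Seurat cluster numbers. Each cell's mitochondrial share, deposited as a percent, was summarised per library and served as a filter in alternatives. Doublets are not mentioned in the sources used here, and none were called. The members, gene lists and rules were chosen with earlier results of these data known.

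The OPCs' counts were added up per library. CPM values carry exact Poisson intervals, and shares have 95% Clopper-Pearson intervals. Fold changes have exact conditional intervals, and differences between shares have intervals built from both exact ones. Where a count is 0, the limit is the upper bound of its exact interval. For each comparison the 8 largest log2 ratios each way among genes with a mean of at least 30 CPM were named (1 CPM added, mitochondrial and unnamed genes left out), as were the 15 genes that most exceed the next cluster, with members of the fixed lists. Genes measured means genes above this minimum. Cells were thinned to 2000 UMIs, which leaves out 18, 25 and 24 OPCs. Cells that hold other types' transcripts are those with at least 1% of their UMIs from the pericyte, smooth muscle, endothelial and microglia lists. Gene positions are from GENCODE M21 (GRCm38), which may not be the authors' annotation. Scripts were tested on simulated data. R 4.3.3 with edgeR 4.0.16 gave TMM factors for an alternative, and all else was run in Python 3.11.15 with scipy 1.17.1, numpy 2.4.6, matplotlib 3.10.9 and pandas 2.3.3. Some results are not reported here.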

Additional observations from a re-analysis of the deposited data

How the results depend on the processing

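With 1 library per condition there is no replicate check, and the naïve OPCs, at 568866 counts in all, limit the precision. No paired analysis was possible because the conditions share no more than 1 replicate number and no test was made. The methods' filters on mitochondrial share, genes and UMIs, applied again to the deposited cells, left 72 of 100, 257 of 301 and 288 of 294 OPCs. The naïve OPC share then was 1.82%, the committed-leading share after physical injury 4.31%, and 710, 1026 and 145 genes were past 2-fold in place of 141, 314 and 79 (physical against naïve, ischemic against naïve, ischemic against physical). Among clusters 4, 6 and 7 the OPC shares were 45.5%, 44.9% and 22.2%, and by at least 3 OPC genes per cell the ischemic share was 15.6%. The committed-leading share after ischemic injury was 4.44% when more than 2 times the OPC UMIs were required, 20.4% when more than 0.5 times sufficed, and 33.0% without Lhfpl3, which gave 15.2% after physical injury. The mitosis share after physical injury was 0% at 1000 UMIs, 7.31% without thinning and 6.88% with DNA replication genes added, and after ischemic injury it was 20.4% without thinning, 12.2% with at least 1 UMI and 13.3% with DNA replication genes. With each cell weighted equally 339 and 510 genes were past 2-fold in the 2 comparisons with the naïve library, with 10 CPM added 73 (physical against naïve) and 51 (ischemic against physical), with a mean of at least 100 CPM 25, 115 and 24, with no minimum 3228, 3842 and 1234, and with sums thinned to equal totals 234 (physical against naïve) and 238 (ischemic against physical). Without committed-leading cells 121 genes were past 2-fold between the injuries. The named genes that changed direction were Frmd4a between the injuries without committed-leading cells (log2 ratio 0.68) and Mki67 between physical injury and naïve without cells with 2 mitosis UMIs (1.74). Without the cells that hold other types' transcripts, 9 of 16 named genes stayed past 2-fold in physical injury against naïve. In ischemic injury against naïve 11 of 16 did, and between the injuries 16 of 16. Of 576 values of named genes under 12 alternatives, 485 stayed within the counting interval of the reported ratio. That interval was wide for genes with 1 naïve UMI, such as Hpgd, at 17.5 to 3863 in ischemic injury against naïve.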
